A study of Homo sapiens with 15 samples.

Results

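Wild type and truncated RBM47 were compared over the same doxycycline doses in clones of the same breast cancer line. WT10 carried wild type RBM47 and MUT3 carried the RBM47-I281fs mutant, a frameshift that cuts the protein short. The paper reports low levels of the mutant protein although its mRNA was robust, and calls it unstable and inactive. Both transgenes were FLAG-tagged and inducible by doxycycline, an antibiotic that switches on their promoter. Both clones were, by the methods, single sorted cells grown out from 231-BrM2, the brain metastatic derivative of the triple-negative line MDA-MB-231. Doxycycline was at 0, 1, 2.5, 5 or 25 ng/ml, with 1 library at each dose in each clone, so 10 of the 15 libraries of the series were used, 5 per clone. The other 5 libraries, of the WT6 clone, were left out because the methods derive WT6 from another line, although the labels give MDA231 for every library. There was no replicate, and the duration of the doxycycline treatment is not given in the sources used here. Each transgene was represented by 1 clone, so the transgene and the clone cannot be told apart.

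RBM47 is an RNA-binding protein with RNA recognition motifs that binds introns and 3′ untranslated regions and can stabilize mRNAs and change their splicing. Doxycycline was given to both clones, so a response to the drug alone would be shared by them, whereas a response that needs intact RBM47 would appear in WT10. Among the genes considered below are secreted Wnt antagonists, chemokines and cytokines, which carry much of the signalling between tumour cells and their surroundings, and the genes of the cell cycle.

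WT10 libraries held 17193616 to 44771871 reads on genes, with the most at 5 ng/ml, and MUT3 libraries 14955172 to 20442942. The detection floor of 3 reads equalled 1.19 to 3.75 normalized counts, depending on the library. The 7 markers listed as high in MDA-MB-231 were detected in all 10 libraries, with VIM between 84886 and 104639 normalized counts. Their slope difference, defined below, was called negative for 4, VIM among them, and positive for 1. Markers listed as low or absent were less uniform. KRT5 was at 0, but ERBB2 (1021 to 1433), GATA3 (163 to 213) and ESR1 (5.18 to 11.97) were above the floor in all 10 libraries. PGR was at 7.98 to 23.8 in WT10. FOXA1 was at 12.98 in untreated WT10, and CDH1 at 19.7 in WT10 at 25 ng/ml. At 0 ng/ml, 439 of 13130 genes (3.34%) were at least 2-fold higher in WT10 and 323 (2.46%) at least 2-fold higher in MUT3, so the clones already differed before induction. The untreated MUT3 library stood apart from the other MUT3 libraries in noncoding RNAs and the histone transcript HIST1H1E. RMRP, the RNA of the RNase MRP complex, was at 265 in it and between 18.8 and 33.3 in the other 4. In WT10 the library at 25 ng/ml stood apart, with RMRP at 148 against 12.98 to 65.6 at the lower doses. The noncoding RNA MALAT1 was at 10612 in it and between 2482 and 4581 at the lower doses. Reads assigned to no gene were 58.7% of the total in that library and 58.8% in untreated MUT3, each the highest of its clone.

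RBM47 (chromosome 4, 40425284 to 40632892, minus strand, hg19) was induced in both clones. WT10 held 168, 826, 2822, 8134 and 19877 normalized counts at 0, 1, 2.5, 5 and 25 ng/ml, and MUT3 held 73.8, 92.1, 336, 949 and 22084. The value rose at every step in both clones, but MUT3 was lower at each dose except the highest. Reads of the transgene and of the endogenous gene cannot be told apart in these counts, and 1 gene on the same strand and 3 on the other overlap the locus in GENCODE. The ratio of 25 over 0 ng/ml was 118.5 in WT10 (95% counting interval 101.2 to 139.7) and 299 in MUT3 (232 to 393). RBM47 mRNA was therefore similar in the clones at 25 ng/ml, and again in WT10 at 1 ng/ml (826) and MUT3 at 5 ng/ml (949). On the dose scale its slope was steeper in MUT3 (2.05 against 1.23, difference −0.82 ± 0.20 SE, adjusted p = 0.00784), but without the WT10 library at 25 ng/ml the difference was 0.044.

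**Figure D1:**
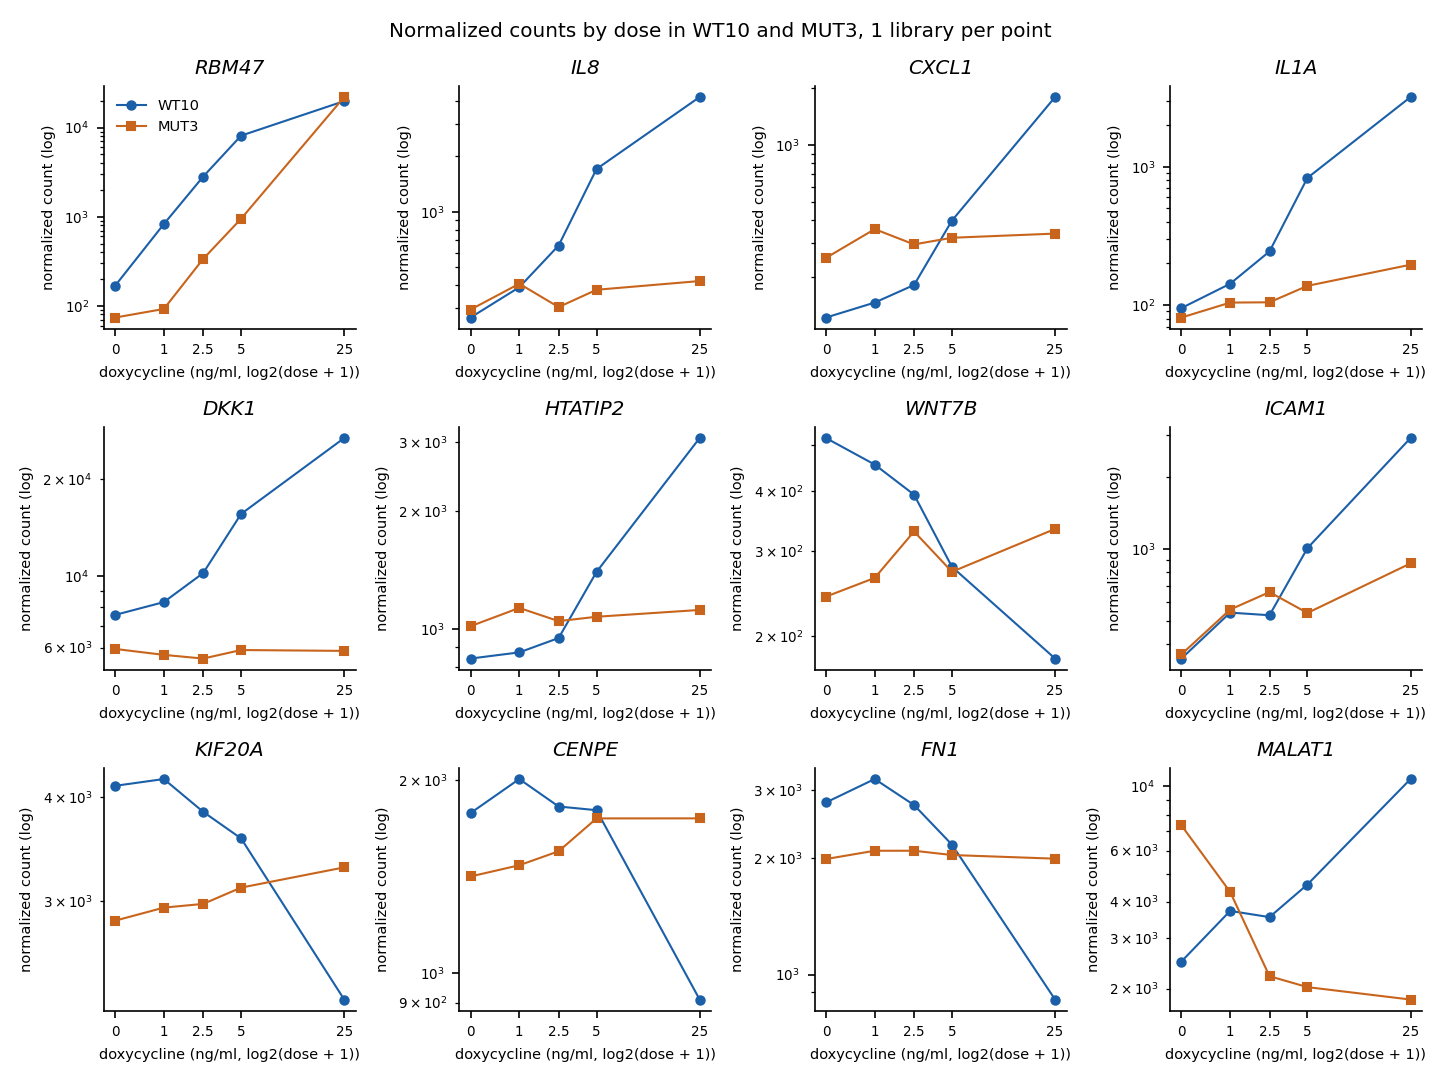
Normalized counts (log axis) of 12 genes against the doxycycline dose in ng/ml, spaced as log2(dose + 1), in WT10 (circles) and MUT3 (squares), with 1 library per point and no error bars. RBM47 met at 25 ng/ml in both clones, at 19877 and 22084, while IL8 was at 4198 in WT10 and 420 in MUT3.

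To ask which genes responded differently, the log2 normalized count was regressed on log2(dose + 1) in each clone, and the slope in MUT3 was subtracted from that in WT10. A slope is thus the change in log2 count per unit of log2(dose + 1), of which 0 to 25 ng/ml spans 4.70. By limma, 3057 of 13130 genes (23.3%) had a slope difference at a Benjamini-Hochberg adjusted p under 0.05, with 1374 positive (10.5%) and 1683 negative (12.8%). The slope itself passed the same test for 4967 genes in WT10 (37.8%), with 2421 rising (18.4%) and 2546 falling (19.4%), and for 10 in MUT3 (0.0762%), with 8 rising (0.0609%) and 2 falling (0.0152%). In MUT3 839 genes had an unadjusted p under 0.05. edgeR called 10 slopes in MUT3 and DESeq2 24. Of the 3057 genes, 2919 had the larger slope in WT10, and 2895 also had a WT10 slope that passed. Among the 1374 positive genes the median change from 0 to 25 ng/ml was 1.59-fold in WT10 and 0.953-fold in MUT3, and 588 rose at every step of dose in WT10 against 16 in MUT3. Among the 1683 negative genes the medians were 0.702-fold and 1.06-fold, and 882 fell at every step in WT10 against 4 in MUT3. Both sets were chosen by the slope difference in these same libraries, so their medians and step counts partly follow from that choice. Over all 13130 genes, 900 rose (6.85%) and 1237 fell (9.42%) at every step in WT10, against 226 (1.72%) and 131 (0.998%) in MUT3.

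These counts leaned on the MUT3 library at 25 ng/ml, the single point with high mutant RBM47 mRNA. Without it the MUT3 slope rested on doses up to 5 ng/ml, which span 2.58 units in place of 4.70, and 210 slope differences were called (101 positive and 109 negative), of which 208 were among the 3057 with the same sign. Without the WT10 library at 25 ng/ml 3128 were called, of which 1649 were shared with the same sign. Of the 124 called genes among the 157 chosen by rule for naming, 36 kept their call without the MUT3 library and 79 without the WT10 one. In each of the 10 fits that left out 1 library, 32 kept it, among them CXCL1, IL1A, IL8, DKK1, HTATIP2, MMP1, TNFAIP3, MSMO1, SLC2A1, ID3 and KIF20A. MUT3 held less RBM47 mRNA at each dose below 25 ng/ml, so slopes on dose compared unequal induction. With log2 RBM47 in place of dose 2150 differences were called (908 positive and 1242 negative), of which 1937 were among the 3057 with the same sign.

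**Figure D2:**
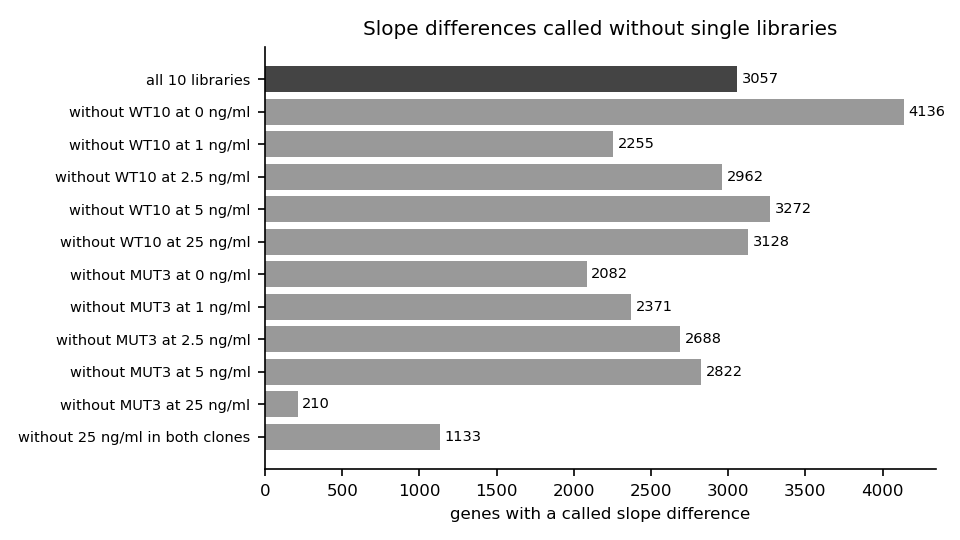
Number of genes with a called slope difference (x axis) with all 10 libraries and after leaving out single libraries or both 25 ng/ml libraries (y axis). The count was 3057 with all libraries and between 2082 and 4136 in 9 of the 10 fits without 1 library, and fell to 210 without MUT3 at 25 ng/ml.

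The endpoints were also compared, because RBM47 mRNA was similar in the clones at 25 ng/ml. These libraries also entered the slopes, so the ratios are not separate support for them. They include untreated MUT3 and WT10 at 25 ng/ml, the libraries that stood apart. Similar mRNA does not mean similar protein here, because the paper reports that the mutant protein was low. At 25 ng/ml, 504 genes (3.84%) were at least 2-fold higher than at 0 ng/ml in WT10 and 172 (1.31%) at least 2-fold lower. The corresponding numbers were 77 (0.586%) and 65 (0.495%) in MUT3. In both clones 28 genes passed upward and 2 downward, and 17 passed in opposite directions. At 1.5-fold the numbers were 1421 (10.8%) and 980 (7.46%) in WT10 and 262 (2.0%) and 282 (2.15%) in MUT3. With 1 library per point these counts have no test. Most of the MUT3 genes past 2-fold had few reads. Among the 10746 genes with a mean of at least 100, 15 were higher and 5 lower past 2-fold in MUT3, against 197 and 63 in WT10. At the lower pair of similar RBM47 levels little moved in either clone. Among the same 10746 genes, 3 were at least 2-fold higher and 0 at least 2-fold lower in WT10 at 1 ng/ml, and 2 and 5 in MUT3 at 5 ng/ml.

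**Figure D3:**
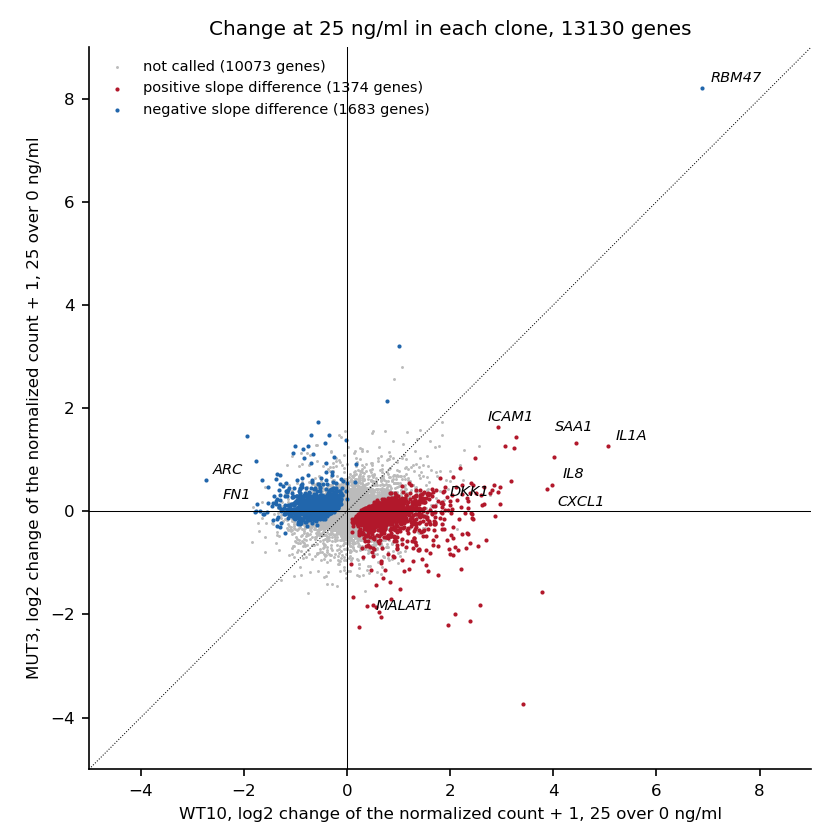
Change from 0 to 25 ng/ml in WT10 (x axis) against MUT3 (y axis), as the log2 difference of normalized counts plus 1, for 13130 genes (1 point each), with called slope differences in colour (1374 positive and 1683 negative) and the line of equal change dotted. Most called genes spread along the WT10 axis near 0 on the MUT3 axis, and RBM47 lies above the line of equal change at the upper right.

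Inflammatory genes led the positive slope differences among genes with a mean of at least 100 normalized counts. In WT10 the chemokine IL8 (also CXCL8), which attracts neutrophils, was at 266, 389, 655, 1706 and 4198 normalized counts across the doses, and in MUT3 at 294, 406, 303, 377 and 420. The clones started at a similar level and separated from 2.5 ng/ml. At 25 over 0 ng/ml the ratio was 15.8 (13.9 to 18.0) in WT10 and 1.43 (1.21 to 1.69) in MUT3, with a slope difference of 0.80 ± 0.08 (SE; adjusted p = 5.2e-05). CXCL1, a chemokine of the same receptor, went from 121 to 1798 in WT10 and stayed between 251 and 357 in MUT3 (0.90 ± 0.08, adjusted p = 2e-05). CXCL2 was at 86.5 and 490 at the endpoints in WT10 and at 48.8 and 101 in MUT3 (0.42 ± 0.07, adjusted p = 0.00138). Its MUT3 ratio, 2.06 (1.41 to 3.07), was itself above 1. Of 14 listed chemokines only 5 had a mean of 10 or more in each clone. Of these 3 had a positive difference and 0 a negative one, beside 10.5% and 12.8% of all genes. The median of the 5 at 25 over 0 ng/ml was 5.61 in WT10 and 1.43 in MUT3, and all 5 were higher at 25 ng/ml in each clone. CXCL5, CXCL6, CXCL10 and CX3CL1 stayed at or below 1.25 normalized counts, under the 3-read floor, in all 10 libraries.

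Among interleukins and colony-stimulating factors, 10 of 14 were fitted, 5 with a positive and 2 with a negative difference, beside 10.5% and 12.8% of all genes. Their median at 25 over 0 ng/ml was 2.65 in WT10 and 1.43 in MUT3, where 9 of 10 were higher at 25 ng/ml. IL1A, an alarmin of the interleukin 1 family, counted 95.2, 143, 244, 831 and 3193 in WT10 and 81.3, 104, 105, 138 and 196 in MUT3, both in the order of dose. Its ratio at 25 ng/ml was 33.5 (27.1 to 42.0) in WT10 and 2.41 (1.81 to 3.25) in MUT3, and the slope difference was 0.89 ± 0.10 (adjusted p = 6.5e-05). IL1B reached 894 from 54.1 in WT10 and 125 from 60.0 in MUT3 (0.72 ± 0.10, adjusted p = 0.000323). IL6 (0.49 ± 0.13), IL18 and IL24 (0.23 ± 0.04) also had positive differences, whereas CSF1, the macrophage growth factor, fell from 2162 to 1129 in WT10 and was at 1057 and 1380 in MUT3 (−0.29 ± 0.03, adjusted p = 6.5e-05). LIF was the other negative one (−0.10 ± 0.03). Without the MUT3 library at 25 ng/ml, 2 chemokines and 1 interleukin (IL1A) kept a positive call and CSF1 a negative one.

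SAA1, an acute phase protein, had the largest difference among genes with a mean of at least 100 (1.06 ± 0.17, adjusted p = 0.000707). Its level was 31.4, 28.0, 34.9, 79.1 and 702 in WT10 and between 15.01 and 38.8 in MUT3. Most of its increase in WT10 lay in the last step, and the difference was not called without either 25 ng/ml library. Of 14 acute phase and complement genes 10 were fitted and 4 called, the others being C1S, C3 and CFB, all positive, with 0 called without the MUT3 library at 25 ng/ml. Of all genes 10.5% had a positive difference and 12.8% a negative one. The median of the 10 acute phase and complement genes at 25 over 0 ng/ml was 1.63 in WT10 and 1.43 in MUT3. ICAM1, an adhesion molecule for leukocytes, rose in WT10 from 348 to 2909. In MUT3 its counts were 363, 558, 660, 540 and 870, a ratio of 2.40 (2.10 to 2.75) at 25 ng/ml. The difference of 0.46 ± 0.07 (adjusted p = 0.000486) was therefore one of size. TNFAIP3, a feedback inhibitor of NF-kB, and NFKBIZ were the other called members of the NF-kB list, at 0.30 ± 0.04 and 0.20 ± 0.04. The remaining 16 of 19 were not called, and the list's median slope difference of −0.0052 was close to the −0.0043 of all genes. The list rose in both clones. Its median at 25 over 0 ng/ml was 1.26 in WT10 (14 of 19 higher) and 1.16 in MUT3 (18 of 19 higher), beside 0.991 and 1.01 over all genes.

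**Figure D4:**
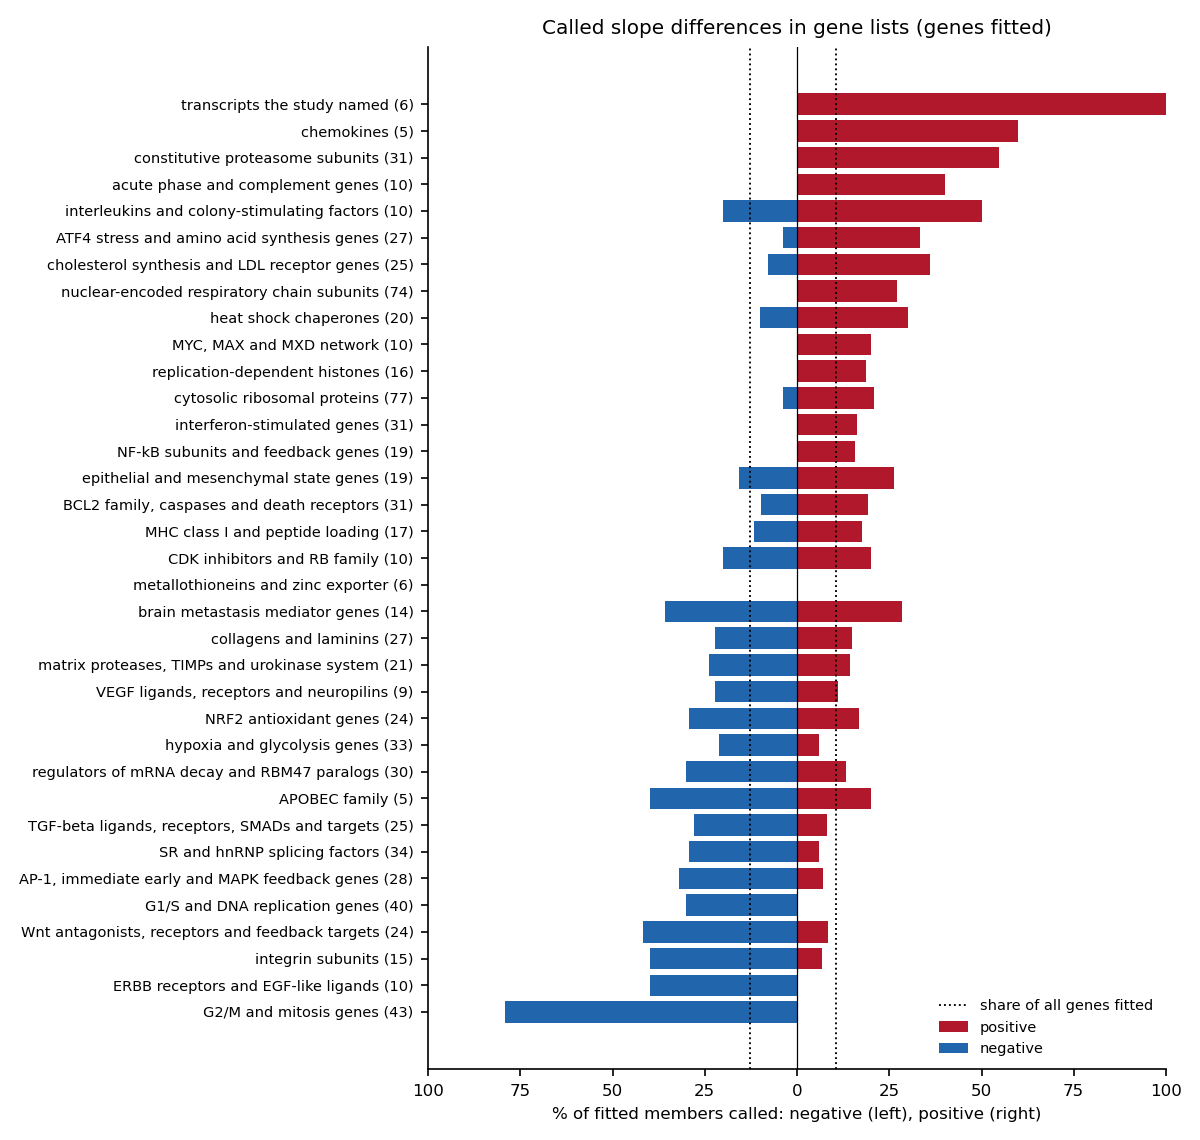
Share of each list's fitted genes (x axis, percent) with a positive or a negative slope difference, for the gene lists on the y axis, beside the same shares for all 13130 genes. Mitosis genes were called to the negative side alone (34 of 43) and proteasome subunits to the positive side alone (17 of 31).

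Stretches of 30 bases from the 3′ untranslated regions of 5 of these and later genes are shown because an RNA-binding protein acts on such sequence. They were read 5′ to 3′ from hg19, with transcripts of GENCODE release 44 placed on it, at chr4:74608381-74608410 (plus strand, IL8), chr4:74736391-74736420 (plus, CXCL1), chr2:113587571-113587600 (minus, IL1B), chr10:54076844-54076873 (plus, DKK1) and chr6:43754023-43754052 (plus, VEGFA). Capitals mark the first AU-rich nonamer TTATTTATT or, in DKK1, which had none, runs of 3 or more T. In CXCL1 and IL1B an overlapping copy of the nonamer follows and is not fully marked.
IL8: atgtaaagtaTTATTTATTtgaatctacaa
CXCL1: agtcttctatTTATTTATTtattcattagt
IL1B: gcttccctatTTATTTATTtatttgtttgt
DKK1: taTTTTTcctcttgttatgtaaaTTTTTgt
VEGFA: ttgttatcatTTATTTATTggtgctactgt
The nonamer, searched on the transcribed strand, was in 11.8% of genes with a positive slope difference (150 of 1266 with a 3′ untranslated region), 8.1% of those with a negative one (133 of 1641) and 9.74% of all genes fitted (1177 of 12082). Among 3′ untranslated regions of 1000 to 2000 bases the shares were 8.8%, 6.06% and 8.01%. VEGFA carried the nonamer and had a slope difference near 0, and DKK1 lacked it and had one of 0.42. The paper's motif search found no enriched sequence in its top binding sites, only poly(U) where crosslinking had left mutations. Binding of RBM47 to the nonamer was not tested.

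The study had named 6 transcripts from these same libraries, so their direction here is not independent evidence. All 6 had a positive difference, beside 10.5% of all genes with a positive and 12.8% with a negative one. With all 15 libraries in the fit, or with log2 RBM47 in place of dose, 5 were called. DKK1, a secreted antagonist of Wnt signalling, was at 7579, 8307, 10223, 15594 and 26822 in WT10 and at 5945, 5698, 5550, 5899 and 5862 in MUT3. The WT10 values rose at each step, and the MUT3 values kept within a narrow range. Its ratio at 25 ng/ml was 3.54 (3.45 to 3.63) in WT10 and 0.986 (0.949 to 1.03) in MUT3, with a slope difference of 0.42 ± 0.04 (adjusted p = 2e-05), and GENCODE places 1 gene on the opposite strand over it. HTATIP2, a proapoptotic and metastasis-suppressing gene, went from 842 to 3074 in WT10 and was between 1018 and 1133 in MUT3 (0.42 ± 0.05, adjusted p = 0.00012). The transcriptional repressors HBP1 (0.20 ± 0.04) and MXI1 (0.12 ± 0.04) had the smallest differences and lost their calls without the MUT3 library at 25 ng/ml. MXI1 lost it without the WT10 library too.

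VEGFA and AXIN2, also named by the study, were not called. VEGFA, the main angiogenic factor, was at 1150, 1164, 1031, 1049 and 1264 in WT10 and at 1404, 1691, 1818, 1645 and 1657 in MUT3 (−0.0075 ± 0.041, adjusted p = 0.921). AXIN2, a feedback target of Wnt, had a difference of −0.16 ± 0.08 (adjusted p = 0.194).

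Beyond DKK1, the Wnt list moved mostly to the negative side. Of 24 fitted genes 2 had a positive difference, DKK1 and DKK3 (0.59 ± 0.11), and 10 a negative one, beside 10.5% and 12.8% of all genes. The negative genes included LRP5, the co-receptor bound by DKK1, the receptors FZD1, FZD2, FZD6, FZD7 and FZD8, CTNNB1 (β-catenin) and its partner LEF1. The receptor ligase ZNRF3 and CCND1 were negative as well. LEF1 was at 485, 496, 429, 380 and 234 in WT10 and between 274 and 316 in MUT3 (−0.23 ± 0.05, adjusted p = 0.00366). LRP5 went from 2626 to 1643 in WT10 and was at 2432 and 2655 at the endpoints of MUT3 (−0.18 ± 0.03, adjusted p = 0.00135). The list's median at 25 over 0 ng/ml was 0.773 in WT10 and 0.997 in MUT3, beside 0.991 and 1.01 over all genes. Without the MUT3 library at 25 ng/ml, DKK1 alone of the list was called. The ligand WNT7B, outside the list but among the 12 most negative genes, fell in WT10 from 517 through 455, 394 and 278 to 179. In MUT3 it was between 241 and 334 (−0.42 ± 0.05, adjusted p = 9.1e-05).

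Mitosis genes had a one-sided list of negative differences. Of 43 genes of G2 and mitosis, 34 (79.1%) had a negative difference and 0 a positive one, against 12.8% and 10.5% of all genes. KIF20A, a kinesin of cytokinesis, was at 4123, 4201, 3838, 3566 and 2287 in WT10 and at 2842, 2947, 2977, 3114 and 3293 in MUT3 (−0.23 ± 0.03, adjusted p = 0.000368). PLK1, a mitotic kinase, was at 4888, 4567, 4200, 3823 and 3065 in WT10 and between 4602 and 5192 in MUT3 (−0.18 ± 0.02, adjusted p = 7.6e-05). The proliferation marker MKI67 went from 11424 to 6577 in WT10, with 10513 and 10311 at the endpoints of MUT3. CENPE, a kinetochore motor, had the largest difference of the list (−0.28 ± 0.06, adjusted p = 0.00388). The median over the list, relative to 0 ng/ml, was 1.03, 1.01, 0.958 and 0.670 at 1, 2.5, 5 and 25 ng/ml in WT10, so most of the decrease lay between the last 2 doses. In MUT3 it was 1.04, 1.06, 1.09 and 1.07. In bulk libraries, fewer cells in mitosis and less of each mRNA per cell cannot be told apart. The number of called genes was 3 without the MUT3 library at 25 ng/ml, 15 without the WT10 one (13 negative and 2 positive) and 22 without untreated MUT3. It was 14, all negative, with log2 RBM47 in place of dose, and 14, all negative, with all 15 libraries in the fit.

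Of 40 genes of G1/S and DNA replication, 12 had a negative difference and 0 a positive one, against 12.8% and 10.5% of all genes. They included the helicase subunits MCM2, MCM3, MCM5 and MCM7, the polymerases POLA1, POLD1 and POLE, and FEN1, which trims Okazaki fragments. FEN1 fell from 5592 to 3526 in WT10 and was between 5382 and 5663 in MUT3 (−0.15 ± 0.02, adjusted p = 0.000189). Without the MUT3 library at 25 ng/ml 1 gene of the list was called, and without the WT10 one 10 negative and 4 positive. Among CDK inhibitors, CDKN1A (p21) went from 2607 to 5961 in WT10 and from 1566 to 2296 in MUT3 (0.16 ± 0.04, adjusted p = 0.00626), while CDKN2C had a negative difference (−0.20 ± 0.03).

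**Figure D5:**
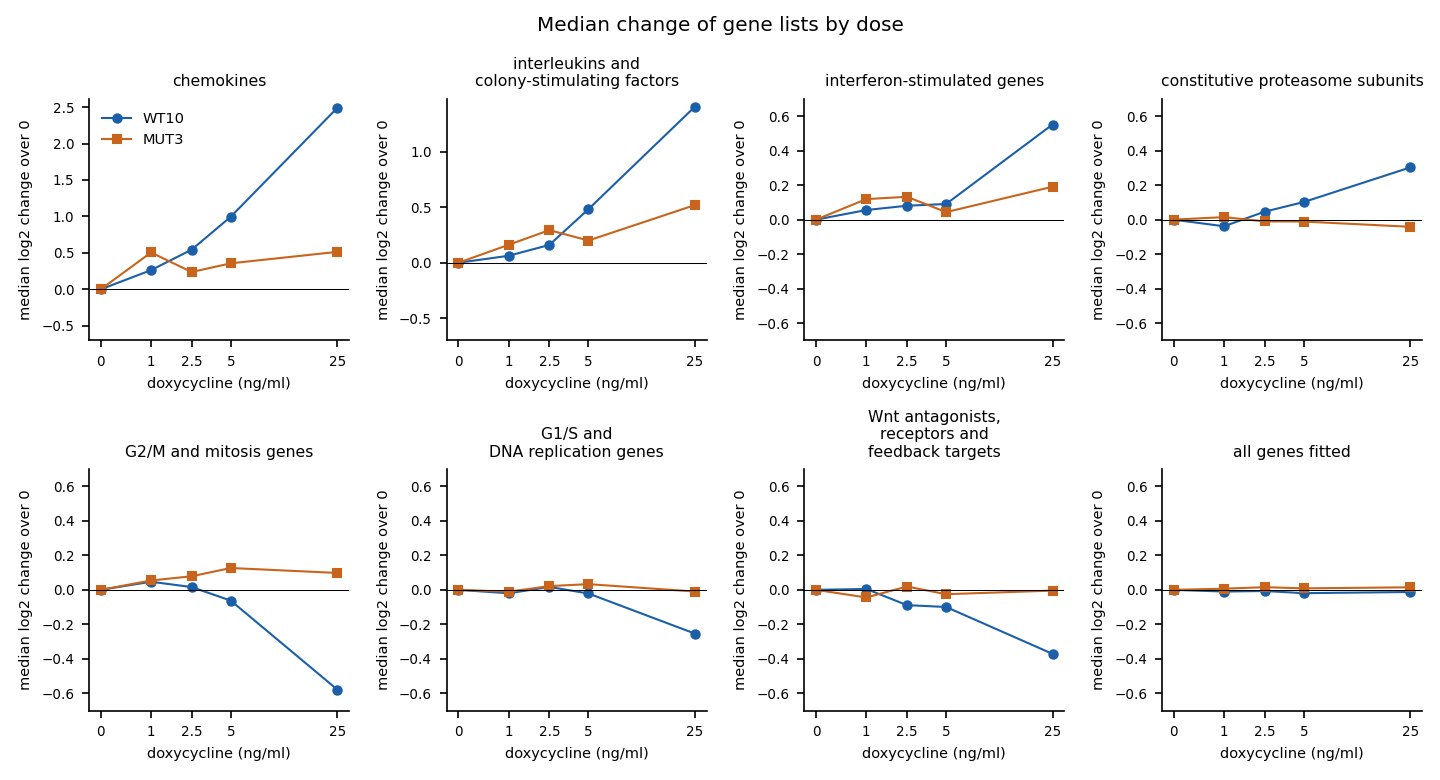
Median change from 0 ng/ml (log2 scale) against the doxycycline dose for selected gene lists, in WT10 (circles) and MUT3 (squares), with 1 library per clone and dose and wider axes for chemokines and interleukins. For mitosis genes WT10 stayed near 1-fold up to 5 ng/ml and was at 0.670-fold at 25 ng/ml, where MUT3 was at 1.07-fold.

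Proteasome subunits moved the other way. Of 31 constitutive subunits 17 (54.8%) had a positive difference and 0 a negative one, beside 10.5% and 12.8% of all genes. Each of these differences was small. PSMA2 was at 2977, 3038, 3406, 3652 and 4264 in WT10 and at 4189, 4468, 4122, 4164 and 3741 in MUT3 (0.16 ± 0.02, adjusted p = 0.00049). PSMC2, an ATPase of the regulatory particle, followed at 0.15 ± 0.03. The list's median at 25 over 0 ng/ml was 1.23 in WT10 and 0.972 in MUT3. Without the MUT3 library at 25 ng/ml 0 of the 31 were called, and without the WT10 one 11 were positive and 1 negative. With log2 RBM47 in place of dose 11 were called, all positive, and with all 15 libraries in the fit 0. Of 74 respiratory chain subunits 20 had a positive difference and 0 a negative one, led by NDUFC2 of complex I (0.34 ± 0.04) and SDHD of complex II (0.23 ± 0.03). With trends on transcript length and GC content removed the respiratory list had 11 positive and 3 negative calls, and without the MUT3 library at 25 ng/ml 1. For ribosomal proteins the direction depended on this correction, with 16 positive and 3 negative of 77 before it and 6 and 22 after it. The share called before it, 24.7%, was close to the 23.3% of all genes.

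Cholesterol synthesis genes held 9 positive and 2 negative differences among 25, where 10.5% and 12.8% of all genes were called. MSMO1, a sterol demethylating oxidase, was at 671, 681, 788, 939 and 1931 in WT10 and between 738 and 818 in MUT3 (0.38 ± 0.05, adjusted p = 0.000109). IDI1, INSIG1 and SC5DL followed between 0.26 and 0.30. SREBF2, the transcription factor of the pathway, had a negative difference (−0.10 ± 0.02). MSMO1, INSIG1 and IDI1 kept their calls in each fit without 1 library. Of 27 genes of the ATF4 stress response 9 were positive, among them ATF3 and DDIT3, and SLC7A5, an amino acid transporter, was negative (−0.21 ± 0.02, adjusted p = 3.71e-05). The 9 were lost without either 25 ng/ml library, and also with log2 RBM47 in place of dose.

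Adhesion and signalling genes moved in both directions. Integrins had 6 negative differences and 1 positive (ITGB2) of 15, beside 12.8% and 10.5% of all genes. ITGB1 went from 11915 to 6974 in WT10 and from 9053 to 10758 in MUT3 (−0.23 ± 0.05), and the difference of ITGA3 was −0.20 ± 0.02. FN1, a matrix ligand of integrins, was at 2781, 3197, 2739, 2164 and 862 in WT10 and between 1987 and 2088 in MUT3 (−0.36 ± 0.07, adjusted p = 0.00265). Only its last WT10 value lay below the whole MUT3 range. MMP1, a collagenase, was much higher in MUT3 and moved in opposite directions, with 4092, 4618, 5277, 6377 and 12925 in WT10 and 41122, 39330, 36105, 36722 and 28105 in MUT3 (0.48 ± 0.03, adjusted p = 2.96e-06). SERPINB2, an inhibitor of urokinase, went from 13858 to 60000 in WT10 and from 8012 to 11078 in MUT3 (0.36 ± 0.06). The laminin chain LAMB3 (0.27 ± 0.07) was positive as well.

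Among AP-1 and MAPK feedback genes 2 were positive (DUSP1 and DUSP10) and 9 negative of 28, beside 10.5% and 12.8% of all genes. The negative ones included FOSL1 (−0.21 ± 0.02), JUN (−0.16 ± 0.03), DUSP4 and SPRY4. ARC, an immediate early gene, had the most negative difference of the AP-1 and MAPK list (−0.57 ± 0.16, adjusted p = 0.0189). It was at 321, 280, 303, 222 and 47.7 in WT10 and between 30.01 and 46.1 in MUT3, so its level in WT10 came close to that of MUT3 at the last dose alone. ID1 and ID3, targets of BMP signalling, were negative too. ID3 was at 1256, 1041, 946, 811 and 556 in WT10 and at 308, 314, 330, 343 and 404 in MUT3 (−0.33 ± 0.03, adjusted p = 3.1e-05). SLC2A1, the glucose transporter GLUT1, fell at each step in WT10 from 11774 to 5070 and was between 7177 and 7847 in MUT3 (−0.27 ± 0.03, adjusted p = 3.77e-05).

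The remaining lists had calls in both directions or few. Interferon-stimulated genes had 5 positive (16.1%) and 0 negative differences of 31, beside 10.5% and 12.8% of all genes, and a median slope difference of 0.08 against −0.0043. The slope in WT10 was called as rising for 20 of them. The 5 became 0 without MUT3 at 25 ng/ml, 3 without untreated MUT3 or without MUT3 at 1 ng/ml, 12 positive and 3 negative without untreated WT10, 7 and 1 without WT10 at 5 ng/ml, and 1 and 2 without WT10 at 25 ng/ml. OAS1, an antiviral sensor of double-stranded RNA, went from 62.8 to 198 in WT10 and was between 52.4 and 60.0 in MUT3 (0.41 ± 0.08, adjusted p = 0.0023). SR and hnRNP splicing factors had 2 positive and 10 negative of 34, and regulators of mRNA decay 4 and 9 of 30, where KHSRP, a decay factor of AU-rich mRNAs, was negative (−0.17 ± 0.02) and the endonuclease ZC3H12A positive (0.28 ± 0.05). The counts were 3 and 2 of 17 for MHC class I, 6 and 3 of 31 for the BCL2 family and caspases, 6 and 2 of 20 for heat shock chaperones, 4 and 7 of 24 for NRF2 genes, 2 and 7 of 33 for hypoxia and glycolysis, 2 and 7 of 25 for TGF-beta, and 4 and 6 of 27 for collagens and laminins. They were 3 and 5 of 21 for matrix proteases, 5 and 3 of 19 for epithelial and mesenchymal genes, 4 and 5 of 14 for brain metastasis mediators, 0 and 4 of 10 for ERBB receptors and ligands, 1 and 2 of 9 for VEGF ligands and receptors, 2 and 0 of 10 for the MYC network, 3 and 0 of 16 for histones and 1 and 2 of 5 for the APOBEC family. Without untreated MUT3, where HIST1H1E was at 176 against 34.6 to 65.5 in the other MUT3 libraries, 0 histones were called. The count was 1 positive without WT10 at 1 ng/ml, and 1 positive and 4 negative without WT10 at 25 ng/ml. None of 6 fitted metallothioneins was called.

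Few slopes were called in the mutant clone. The fit pooled the scatter of both clones, so this count depended on the WT10 libraries too. Without the WT10 library at 25 ng/ml, 211 MUT3 slopes were called (142 rising and 69 falling). Of the 10 genes with a called MUT3 slope, 8 rose (RBM47, GALNTL1, UST, CD82, KIAA1324, TRAF1, DEF6 and SEMA3B) and 2 fell (MALAT1 and ZNF587). GALNTL1, a glycosyltransferase, was at 12.5, 22.2, 26.7, 24.8 and 123 in MUT3 and at 69.2, 68.5, 61.8, 92.2 and 141 in WT10, so that the last MUT3 library alone reached the WT10 range. CD82, a tetraspanin, was at 1323, 1675, 1700, 1682 and 2160 in MUT3 and at 1256, 1257, 1170, 1114 and 1032 in WT10. MALAT1, a nuclear noncoding RNA, was at 7340, 4318, 2208, 2024 and 1833 in MUT3 and at 2482, 3713, 3535, 4581 and 10612 in WT10 (difference 0.88 ± 0.10). Its highest MUT3 value lay in the untreated library that also stood apart in RMRP. Its highest WT10 value lay at 25 ng/ml, in the library that stood apart in RMRP within WT10. Without the untreated MUT3 library the MALAT1 slope in MUT3 was no longer called (2 MUT3 slopes were, both rising), while the MALAT1 slope difference still was.

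Some genes had like slopes in both clones. The mean slope of the clones passed the test for 2572 genes (19.6%), with 1358 rising (10.3%) and 1214 falling (9.25%), a number that a large WT10 slope alone can produce. TRAF1, an NF-kB target, had the smallest p for the mean slope among genes with an unadjusted p over 0.05 for the difference, going from 324 to 632 in WT10 and from 193 to 376 in MUT3 (difference 0.01 ± 0.05, adjusted p = 0.878). KLF4, UST, EBI3, NTN4 and PRLR came next by the same rule. KLF4, a transcription factor, went from 599 to 1170 in WT10 and from 510 to 889 in MUT3, with a mean slope of 0.20 ± 0.02.

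Transcript length and base composition moved with the response in WT10. When genes were split by transcript length into 5 equal classes, the median log2 change from 0 to 25 ng/ml went from 0.06 in the shortest to −0.08 in the longest class in WT10 and from −0.01 to 0.01 in MUT3. Genes with a positive difference had a median transcript of 2795 bases and a GC content of 43.5%, those with a negative one 3951 bases and 53.8%, and all genes 3304 bases and 48.1%. With the trends on length and GC content removed 4011 differences were called, of which 2539 were among the 3057 with the same sign. The part of library composition in these trends was not tested.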

How the data were processed

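Poly(A) RNA was sequenced as paired 75-base reads. By the methods and labels, the authors aligned with STAR to hg19, counted with HTSeq 0.5.4 and scaled with DESeq size factors, and deposited these normalized counts as a signal per gene. Annotation and strandedness are not given in the sources used here. Every value was a whole multiple of 1 read's worth within 0.01 reads, so reads were also recovered for edgeR 4.0.16 and DESeq2 1.42.0.

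The main test was limma 3.58.1 (R 4.3.3) with vooma weights on log2(value + 1), for genes with a mean of at least 10 in each clone, with an intercept and slope on log2(dose + 1) per clone, 6 residual degrees of freedom and Benjamini-Hochberg adjustment over all 13130 genes. A fold on this scale understates changes of low genes. Errors are standard errors. Ratio intervals are 95% and cover counting error only. With 1 library per clone and dose, p-values measure scatter about a straight line, not variation between cultures. On simulated data with 200 of 13130 genes changed, 61.2 to 68.7% of genes with a slope difference of 0.2 were recovered and 5.98 to 12.0% of calls were false. At a slope difference of 0.1, 7.46 to 16.4% were recovered, so many differences of that size would not be called. Far more genes were called in the real data, so the simulated false share may not hold for them.

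Genes named were RBM47, the 12 most positive and 12 most negative called differences with a mean of at least 100, the 6 largest MUT3 and 6 strongest shared slopes, up to 4 genes per list, and the transcripts the study names. Other genes were chosen after their values were seen. Members and lists were chosen with earlier results of these data known. Transcript lengths were found for 91.9% of symbols. Some named genes are not reported here.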

Additional observations from a re-analysis of the deposited data

Results flagged for a closer look

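The slope over dose differed between the clones by its own test for 1374 genes in the positive and 1683 in the negative direction. By size, the 12 positive genes of highest difference with a mean of at least 100 were SAA1 (1.06), CXCL1 (0.90), IL1A (0.89), MALAT1 (0.88), IL8 (0.80), IL1B (0.72), MIR3687 (0.61), PTPRR (0.60), MIR3648 (0.59), C15orf48 (0.55), RPL13AP20 (0.54) and MLLT11 (0.54). RPL13AP20 is a pseudogene that may share reads with RPL13A and its other copies, so its count is uncertain. MIR3648 and MIR3687 were at 584 and 414 in untreated MUT3, the library that stood apart in noncoding RNAs. Their highest WT10 values, 321 and 222, lay in the 25 ng/ml library, which stood apart in RMRP and MALAT1.

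The most negative were ARC (−0.57), IL28RA (−0.43), WNT7B (−0.42), SEMA3B (−0.38), FN1 (−0.36), PDGFRL (−0.35), SCARA3 (−0.35), KIRREL3 (−0.34), ID3 (−0.33), KIAA0895 (−0.33) and TAGLN (−0.32). Called slopes of opposite sign in the clones were also found for CD82 (slope difference −0.20), DEF6 (slope difference −0.23) and ZNF587 (slope difference 0.28), as for MALAT1.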

How the results depend on the processing

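The number of slope differences was 2879 by edgeR, 2615 by DESeq2 and 2983 with TMM scaling (1512 positive and 1471 negative), which moved the median difference by 0.0069. It was 748 with all 15 libraries in the fit, 2022 with dose as rank, 1133 without 25 ng/ml in both clones, and 0 for any doxycycline against none by limma (369 at an unadjusted p under 0.05). Leaving out each library in turn gave 210 to 4136 differences, with 210 without MUT3 at 25 ng/ml, and 3544 to 5365 WT10 slopes. It gave 2 to 211 MUT3 slopes and 672 to 3827 mean slopes. WT10 slopes numbered 2611 with all 15 libraries and 0 for any doxycycline (1365 unadjusted). MUT3 slopes numbered 24 by DESeq2, 20 with no filter, 16 with no precision weights, 2 with 15 libraries or dose as rank, 3 on log2 RBM47, 0 for any doxycycline (224 unadjusted), 31 without 25 ng/ml in both clones and 52 with length and GC trends removed. Mean slopes numbered 672, 1472, 0 (808 unadjusted) and 4071 with 15 libraries, log2 RBM47, any doxycycline and the trends removed. At 1.5-fold the ratio counts were 1421 up and 980 down in WT10 and 262 and 282 in MUT3, and against the mean of 0 and 1 ng/ml MUT3 had 33 and 40. The RBM47 difference turned to 1.12 for any doxycycline, 0.36 without 25 ng/ml in both clones, and 0 by construction on its own level, with −0.98 to 0.044 over the fits without 1 library. For any doxycycline IL6 was at −0.19, C3 at −0.0645 and EGFR at 0.0476. Without both 25 ng/ml libraries EGFR was at 0.0189 and AKR1C3 at −0.022. PSMC4 was between −0.032 (without WT10 at 25 ng/ml) and 0.19 over the fits without 1 library. The cause was not tested, except that fewer doses or samples entered the fits without libraries. No paired analysis was possible because the replicate number, 1 in every group, pairs no cultures. With dose as a block shared by both clones, 3879 slope differences were called (1735 positive and 2144 negative), of which 3044 were among the 3057 with the same sign.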

Other observations

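Genes outside the lists' fits, chosen after their values were seen, moved in WT10 at the top dose. CCL26, an eosinophil chemokine, was at 9.74, 7.72, 8.98, 19.9 and 192 normalized counts in WT10 and at 6.25 or less in MUT3. SAA2, a neighbour and near copy of SAA1 with which it can share reads, was at 1.08, 3.86, 3.99, 14.3 and 113 in WT10 and at 4.44 or less in MUT3. CSF3 was at 3.25, 10.6, 10.97, 27.8 and 74.6 in WT10 and at 11.1 or less in MUT3. CDH1, the epithelial cadherin, was at 19.7 in WT10 at 25 ng/ml and at 1.99 or less in the other 9 libraries. These genes had too few reads in MUT3 to be fitted.

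RMRP was at 12.98 in untreated WT10 and 148 at 25 ng/ml, opposite to MUT3, where it was highest without doxycycline.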
